A study of Drosophila melanogaster with 27 samples.

Results

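Eukaryotic cells move newly made proteins from the endoplasmic reticulum to the Golgi apparatus and the cell surface in membrane vesicles. Sec proteins, named after yeast secretion mutants, include the ER protein channel, the COPII coat of vesicles that leave the ER and the exocyst, which tethers vesicles at the plasma membrane. Coatomer is the COPI coat of vesicles that return to the ER and move within the Golgi, and Rab proteins are small GTPases that mark membranes and recruit the factors for docking and fusion. In the wing imaginal disc, the larval epithelium that gives rise to the wing and notum, these routes carry secreted signals, their receptors, adhesion proteins and matrix.

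The genes described here were chosen by symbol from the protein-coding genes of the RefSeq table for the dm6 assembly. The rule took symbols with Sec or Rab followed by a digit, or ending in COP, and found 57 genes among 13922 on 2L, 2R, 3L, 3R, X and 4, namely 19 Sec, 7 coatomer and 31 Rab genes. It used symbols and no measured value, but the choice of these families was made with peak counts of the same list known. All counts below are therefore descriptions, and no difference between the classes, or between them and other genes, was tested. Where a Sec or Rab symbol does not name what the class name says, the gene is described by its product. The Rab class holds 23 Rab GTPases, 5 copies related to Rab9 (Rab9D, Rab9Db, Rab9E, Rab9Fa and Rab9Fb) and 3 regulators of Rab3 (Rab3-GEF, Rab3-GAP and Rab3GAP1).

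Monomethylation of lysine 20 on histone H4 (H4K20me1), deposited by the enzyme Set8, was profiled by CUT&RUN. In this assay an antibody tethers a nuclease to chromatin, and the DNA fragments it frees are sequenced. The peaks came from female wandering larvae of instar 3 of the wild-type strain Oregon-R, raised at 25 °C, with no transgene or mutation named in the labels. The comparison was between H4K20me1 antibody libraries (n = 3) and libraries that received no primary antibody (n = 3), each made from 20 pooled wing discs. The peak list is a single set of 6914 intervals with no height, p-value or value per library, so read depth and the spread between libraries are unknown. The other 8 groups of the series (21 libraries: Set8 null, Set8 null with a wild-type or mutated Set8 transgene, and histone replacement genotypes with or without His4r) were not analysed here. A whole disc holds several cell types, and a mark on part of the cells cannot be told apart from a weaker mark on all of them.

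Every coatomer gene and all but 1 Sec gene carried an H4K20me1 peak, against about 50% of the Rab genes. A gene counted as carrying a peak when at least 1 bp of its body, from the lower to the upper annotated coordinate, lay in a peak. Among all protein-coding genes, 38.3% met this rule. The coatomer genes met it in 7 of 7 cases (95% Wilson interval 64.6 to 100%), the Sec genes in 18 of 19 (94.7%, 75.4 to 99.1%) and the Rab genes in 16 of 31 (51.6%, 34.8 to 68.0%). Over all 57 genes the count was 41 (71.9%, 59.2 to 81.9%). The intervals cover only the counting of genes, which are not replicates of the discs. The exception among the Sec genes was Sec10, an exocyst gene.

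The classes kept that order when the extent of the peak was considered. At least 50% of the body was covered in 6 of 7 coatomer genes, 11 of 19 Sec genes and 11 of 31 Rab genes, where 18.3% of all protein-coding genes reached that extent. At least 90% was covered in 3 coatomer, 4 Sec and 4 Rab genes, compared with 6.97% of all genes. The median covered share was 69.1% for coatomer (range 26.6 to 100%), 58.3% for Sec (0 to 100%) and 3.38% for Rab genes (0 to 100%), and 0% over all protein-coding genes. Summed over each class, peaks covered 82.1% of the sequence of the coatomer genes, 59.7% of that of the Sec genes and 18.3% of that of the Rab genes. In all protein-coding genes, 18.9% of the summed gene sequence was covered.

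**Figure D1:**
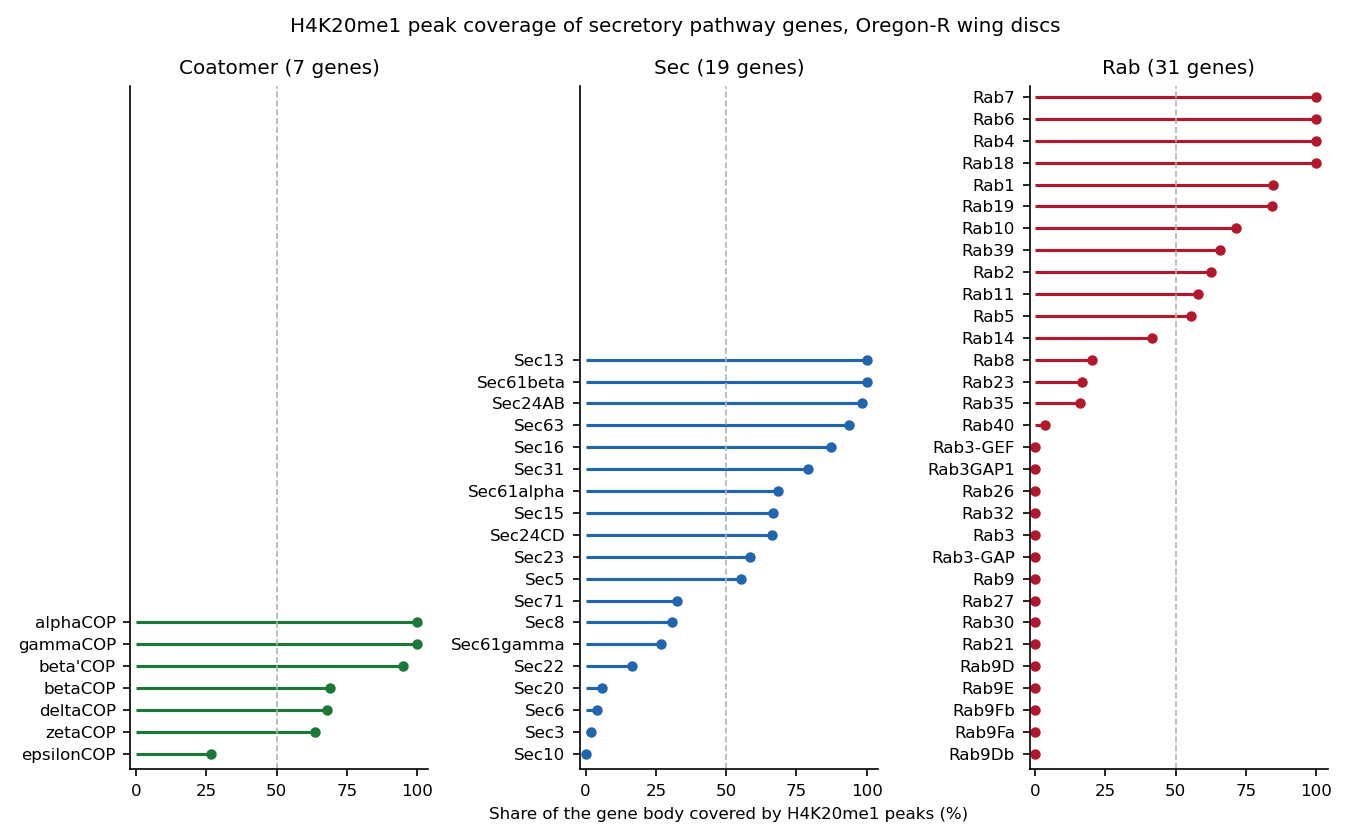
Share of each gene body covered by H4K20me1 peaks (x axis, percent) for the 7 coatomer, 19 Sec and 31 Rab genes, with 1 point per gene and a dashed line at 50%. Coatomer genes run from 26.6 to 100%, while 15 Rab genes sit at 0.

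A long body has more room for an overlap of 1 bp, so the counts were also taken by gene length. Median lengths were alike in the classes, 3481 bp for coatomer, 3394 bp for Sec and 3091 bp for Rab genes, and all exceeded the 2163 bp of all protein-coding genes. The spread of lengths differed, from 1105 to 4134 bp for coatomer, 911 to 13864 bp for Sec and 871 to 24081 bp for Rab genes. Most of the genes were longer than 2 kb and at most 5 kb. Of the 30 in this range, 25 had a peak and 16 were covered over at least 50%, compared with 46.6% and 23.6% of the 3924 protein-coding genes of that length. By class, these peaks fell in 5 of 5 coatomer, 11 of 12 Sec and 9 of 13 Rab genes.

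Among genes longer than 1 kb and up to 2 kb, 7 of 8 had a peak and 5 were covered over at least 50%, where all genes of that length reached 32.0% and 14.8%. Rab21 was the gene without one. Above 5 kb, 7 of 12 genes had a peak (58.3%) and 5 were covered over at least 50%. Those with a peak were all 5 Sec genes of that length (Sec16, Sec24AB, Sec24CD, Sec31 and Sec71) and 2 of 7 Rab genes (Rab5 and Rab23). The shares for all genes above 5 kb were 54.7% and 23.7%, so the share with a peak was close to that of all genes. Up to 1 kb, Sec61beta and Rab18 lay wholly in peaks and the 5 Rab9-related copies had none, where 14.1% of all genes that short had a peak and 8.73% were covered over at least 50%.

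**Figure D2:**
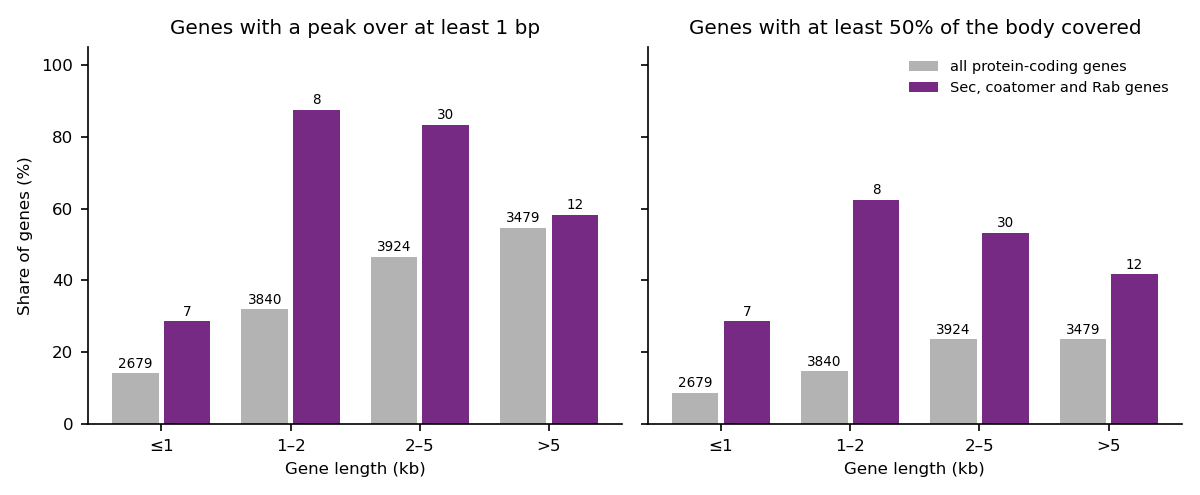
Share of genes (y axis, percent) with a peak over at least 1 bp (left) and with at least 50% of the body covered (right) in 4 ranges of gene length (x axis, kb), for all protein-coding genes (grey) and the 57 Sec, coatomer and Rab genes (purple). Numbers on the bars are gene counts; in the range over 2 and up to 5 kb, 25 of 30 genes had a peak, against 46.6% of all genes.

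Within coatomer, coverage varied from the whole gene to a terminal stretch. The alpha, beta' and epsilon subunits form the outer cage of the COPI coat, and the beta, gamma, delta and zeta subunits form the adaptor layer next to the membrane. Of the cage genes, alphaCOP (3L 1641066 to 1645199, 4134 bp) lay wholly inside a peak of 5900 bp. A peak of 3300 bp covered 94.8% of beta'COP (2L 13378902 to 13382382) and left 99 and 82 bp free at its ends. The third cage gene, epsilonCOP (2L 6489090 to 6490194), is the shortest of the coatomer genes, and 294 bp of it (26.6%) were covered. That peak lay mostly over Phf5a, which overlaps epsilonCOP and was covered completely.

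Among the adaptor genes, gammaCOP (3R 31572143 to 31575707) was covered to 99.8% by a peak of 5400 bp that ran on into pygo. A peak of 4350 bp covered 69.1% of betaCOP (X 18381549 to 18385242) and stopped 1142 bp before its upper end. In deltaCOP (X 1859141 to 1861790), a peak of 1800 bp lay in the interior and covered 67.9%. In zetaCOP (3L 16671664 to 16673555), 63.7% was covered. All 4 adaptor genes thus exceeded 50%, as did 2 of 3 cage genes.

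The COPII genes were covered as broadly as coatomer, with peaks in 6 of 6 genes, each over more than 50% of its body. Their median covered share was 83.1% (58.3 to 100%). All of these genes except Sec16 had a peak that also touched a neighbouring protein-coding gene, so this coverage cannot be assigned to the COPII genes alone. The part of such a shared peak inside the COPII gene ran from 13.4% for Sec23 to 94.0% for Sec24AB. Sec16, a scaffold of ER exit sites, held the most covered sequence of all 57 genes. Its single peak of 12100 bp covered 87.3% of the gene (X 12596047 to 12609910), and the uncovered stretches at its ends measured 854 and 910 bp. In the inner coat, which binds cargo, Sec24AB (2R 9876232 to 9882357) was covered to 98.3% and Sec24CD (2L 2231106 to 2236844) to 66.1%. Their partner Sec23 carried 2 peaks that together covered 58.3%. In the outer cage, Sec13 (3R 23356278 to 23358531) was covered completely and Sec31 (2R 8893613 to 8898798) to 79.0%.

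The 4 genes of the ER protein channel all had peaks. Sec61beta, a small channel subunit, was covered completely, and Sec63, whose product links the channel to a chaperone of the ER lumen, to 93.7%. Peaks covered 68.3% of Sec61alpha, which encodes the pore itself. Sec61gamma was covered over 318 bp of its 1192 bp (26.7%).

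Exocyst genes mostly carried a peak but over much less of their length. In 5 of 6 there was a peak, yet the median covered share was 17.4% (0 to 66.8%), below those of the COPI, COPII and channel genes. Sec15 was covered to 66.8%, Sec5 to 55.4% and Sec8 to 30.7%. Sec6 and Sec3 met the rule by 102 and 67 bp, at the edges of peaks that held more sequence of their neighbours Atg7 and COX7B. Sec10 (3R 24134831 to 24137538) lay 2930 bp from the nearest peak. The exocyst subunits with other symbols split as well, since Exo84 was covered completely and Exo70 had no peak, which gives 6 of 8 exocyst genes with a peak.

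The remaining Sec genes were covered in short stretches. Sec22 and Sec20 encode SNARE proteins, which drive membrane fusion between ER and Golgi. A peak of 350 bp covered 16.5% of Sec22, and a peak of 150 bp, the narrowest width in the list, covered 5.98% of Sec20. Sec71, an activator of Arf GTPases at the Golgi, held a peak of 2000 bp in the middle of its body (32.5%).

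**Figure D3:**
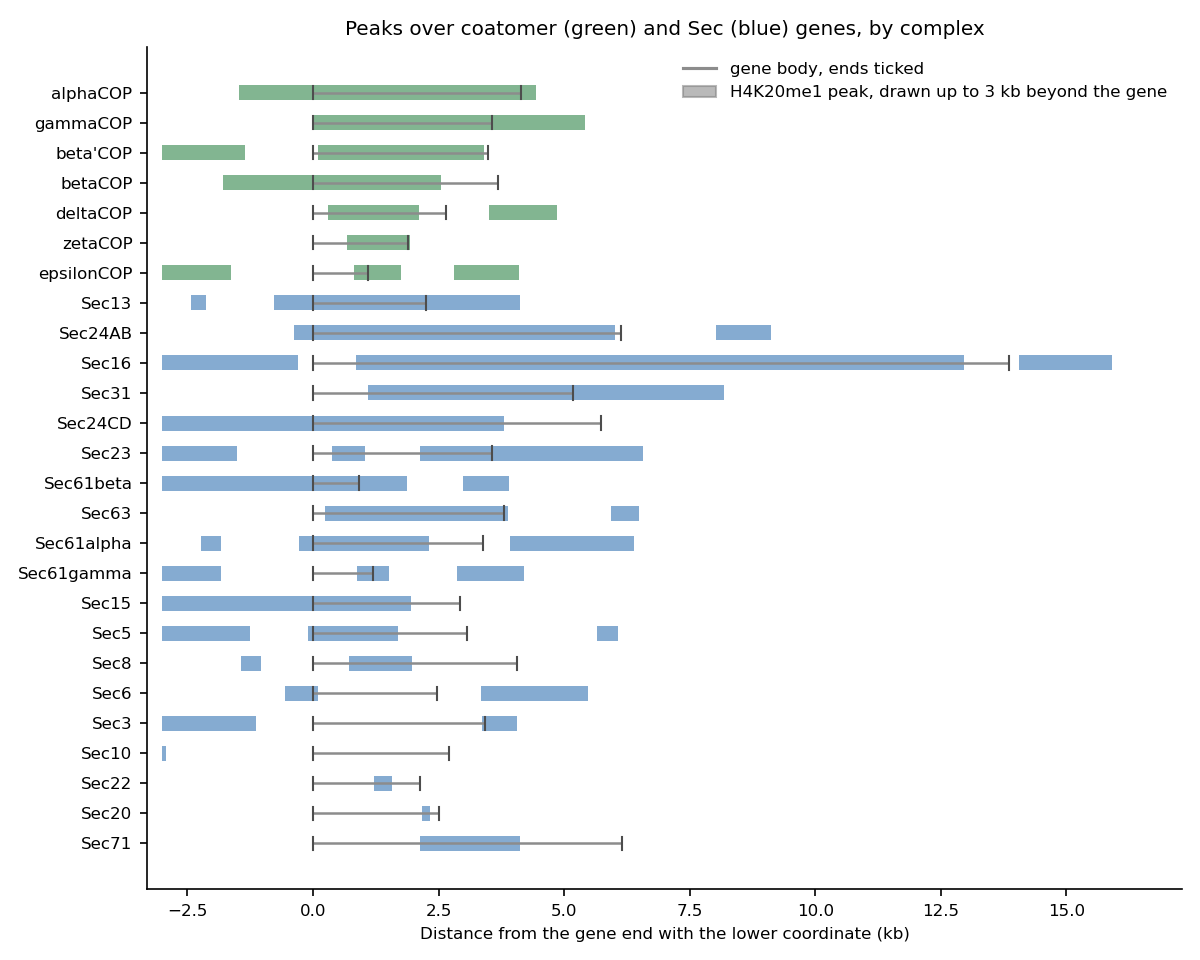
Gene bodies of the 7 coatomer (green) and 19 Sec genes (blue) from the end with the lower coordinate (x axis, kb), grouped from top to bottom as COPI, COPII, ER channel, exocyst, SNARE and Arf activator genes, with peaks drawn as bars up to 3 kb beyond each gene. Peaks fill most of the COPI and COPII genes, whereas those on Sec6, Sec3, Sec22 and Sec20 span at most 350 bp of the gene.

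The 23 Rab GTPase genes are described by the membrane on which their products act. Rabs of the ER and Golgi had peaks in 7 of 8 genes with a median covered share of 75.1%. All of the peaks in this group except that over Rab40 also touched a neighbouring protein-coding gene, so this coverage cannot be assigned to the Rab genes alone. Those of endosomes, lysosomes and recycling had peaks in 6 of 8 with a median of 48.4%. Those of exocytosis and other routes had peaks in 3 of 7 (42.9%), close to the 38.3% of all protein-coding genes, with a median of 0%. Their median gene lengths were 2005, 3444 and 5381 bp in that order. These groups were assigned from general knowledge, and several Rabs act on more than 1 membrane. No difference between them was tested.

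Rab6, which directs traffic within and out of the Golgi (2L 12107221 to 12109116), and Rab18, a Rab of the ER and lipid droplets (X 5670827 to 5671812), lay wholly inside peaks. Rab1, needed for transport from ER to Golgi (3R 21266029 to 21269060), was covered to 84.4%, Rab19 to 84.4%, Rab39 to 65.8% and Rab2 to 62.7%. Rab40, whose mammalian relatives carry a SOCS box and act in ubiquitin ligases, met the rule by 112 bp (3.38%). Rab30, a Golgi Rab, had no peak in its body, and the nearest one, 8750 bp wide, began 594 bp away.

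Of the endosomal Rabs, Rab4, of rapid recycling (2R 17573462 to 17574979), and Rab7, of late endosomes and lysosomes (3R 23993008 to 23995452), were covered completely. Rab11, the Rab of recycling endosomes (3R 21111408 to 21116146), was covered to 57.9% by a peak of 13700 bp that extended 10954 bp past its upper end. Rab5, the Rab of early endosomes (2L 2359142 to 2365273), held 2 peaks inside its body that covered 55.4%. Rab14 was covered to 41.4% and Rab35 to 15.8%, each by a single peak in the interior. Rab21 and Rab9, which acts in retrieval from late endosomes, had no peak.

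Among the Rabs of exocytosis and other routes, Rab10, which in fly follicle cells directs secretion of basement membrane, had the broadest coverage (71.3%). Rab8, of transport to the plasma membrane, was covered to 20.3% by 2 peaks. Rab23, a planar polarity gene of the wing (3R 5680054 to 5685434), carried 3 separate peaks of 150, 450 and 300 bp, the most of any of these genes, which covered 16.7%. No peak lay in Rab3, the Rab of synaptic vesicles (2R 10721335 to 10729203), in Rab26 (16254 bp, 3L 21318774 to 21335027) or Rab27, which act on secretory vesicles, or in Rab32 (8479 bp, 2R 9177864 to 9186342), which in the fly eye serves pigment granules. Rab3 lay 8847 bp from the nearest peak.

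The regulators of Rab3 were also without peaks. They include the longest of the 31 genes, Rab3-GEF (24081 bp, X 15089682 to 15113762), and next to it in length Rab3GAP1 (16336 bp, 2L 1594822 to 1611157). Rab3-GAP is shorter (4881 bp). Rab3-GEF lay 14731 bp from the nearest peak, whereas a peak began 143 bp past the upper end of Rab3GAP1. None of the 5 Rab9-related copies on X had a peak, with gaps of 2815 to 52407 bp to the nearest. Their lengths lie between 871 and 897 bp, and 3 of them lie inside or across a longer gene (X11Lbeta or Myo10A). How alike the copies are in sequence was not computed. If they are near-identical, their reads may not map uniquely. The handling of such reads is not given in the sources used here, so the values of these copies are uncertain. Without the copies and the Rab3 regulators, 16 of 23 Rab genes had a peak (69.6%, 49.1 to 84.4%), against 38.4% of all protein-coding genes. The median covered share was then 41.4% in place of 3.38%. None of the removed genes had a peak, so their removal could only raise these values.

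**Figure D4:**
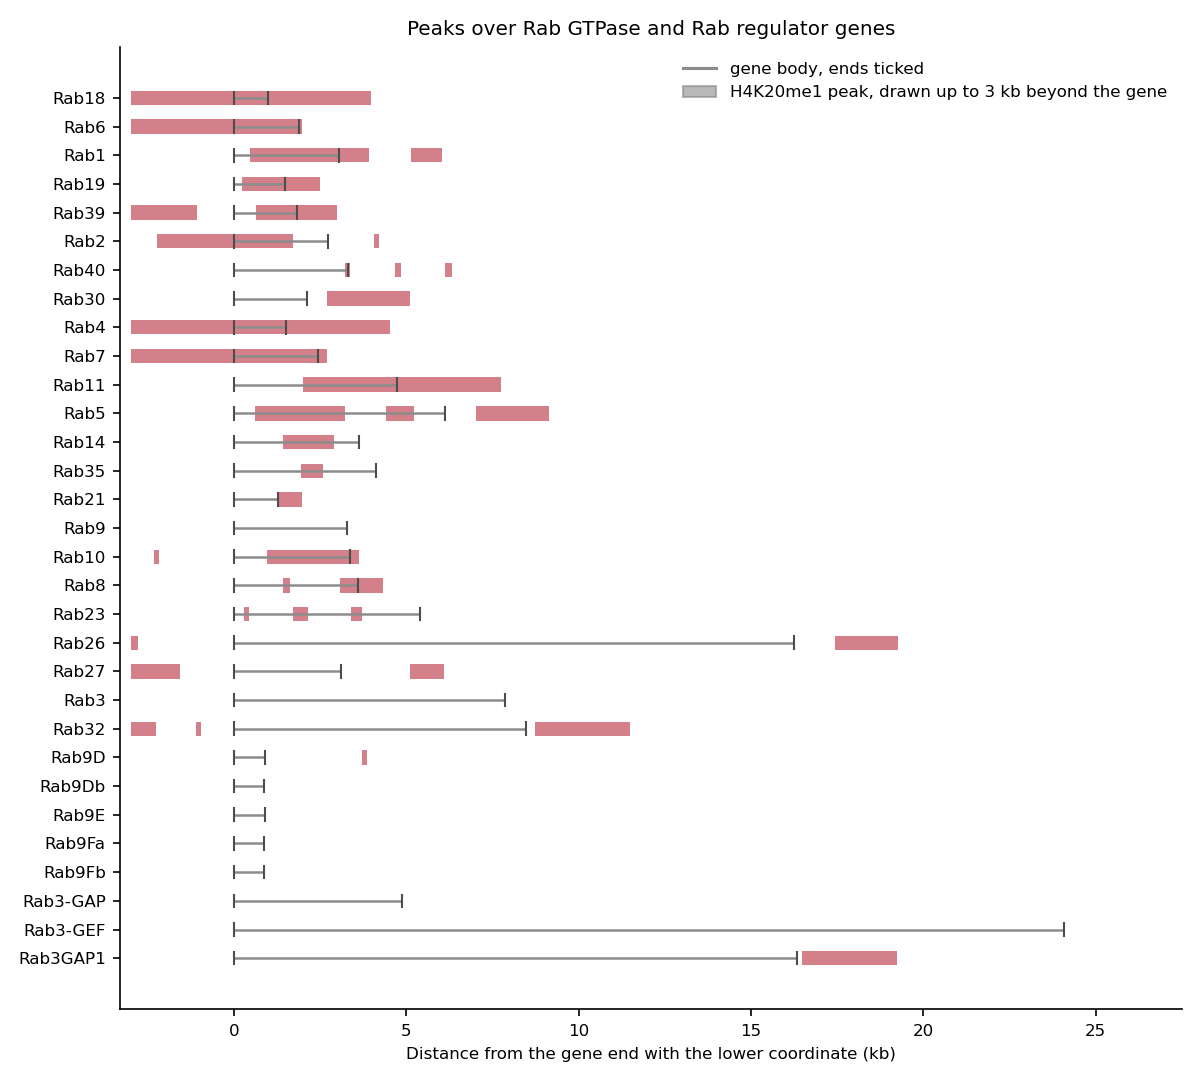
Gene bodies of the 31 genes of the Rab class from the end with the lower coordinate (x axis, kb), grouped from top to bottom as ER and Golgi, endosomal, exocytic and other Rabs, Rab9-related copies and Rab3 regulators, with peaks drawn as bars up to 3 kb beyond each gene. Peaks fill Rab18, Rab6, Rab4 and Rab7, and the 5 copies and 3 regulators hold none in their bodies.

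Near the limit of the 1 bp rule, the smallest overlaps were those of Sec3 (67 bp, gene at 3L 17421787 to 17425217), Sec6 (102 bp, 2R 18625249 to 18627718), Rab40 (112 bp, X 12459796 to 12463112) and Sec20 (150 bp, 3R 5822026 to 5824532). Just outside it were Rab21 (X 23012140 to 23013409), 41 bp from a peak, Rab3GAP1 at 143 bp, Rab32 at 258 bp and Rab30 at 594 bp. The 16 genes without a peak had a median distance of 2992 bp to the nearest one.

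Many of these peaks also lay over neighbouring genes, so part of the coverage cannot be assigned to the secretory gene. Among the 57 genes, 15 overlap another protein-coding gene in the annotation, as do 5762 of all 13922 protein-coding genes. Of the 42 secretory genes that do not, 32 had a peak (76.2%), compared with 32.0% of the 8160 such protein-coding genes. The 57 genes were touched by 46 peaks of 150 to 15250 bp (median 2475 bp, against 1100 bp over all peaks, where wider peaks meet genes more readily). Of the 41 genes with a peak, 26 shared it with at least 1 other protein-coding gene, and in 14 another gene held more of the peak than the secretory gene did. These counts were not taken over all protein-coding genes, so they cannot be set against other genes. A peak that touched no other protein-coding gene was found in 17 of the 41. Of all protein-coding genes with a peak, 2489 of 5339 had such a peak, so shared peaks were common among all genes too. The 12900 bp peak over Sec61beta had 7.06% of its length in that gene and 10368 bp in Su(var)2-HP2, a gene for a partner of heterochromatin protein. The 15250 bp peak over Rab4 also touched 7 other genes, with 5022 bp in Dcr-2, the largest part in any of them. The peak over Rab18 reached Tre1, CG4119 and RpL35, and that over Sec13 covered RpS3 completely. RpL35 and RpS3 encode ribosomal proteins.

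In 15 genes no peak touched another protein-coding gene, and these came from all classes. They were beta'COP, deltaCOP and zetaCOP, the Sec genes Sec16, Sec63, Sec5, Sec71, Sec8, Sec22 and Sec20, and the Rab genes Rab5, Rab14, Rab23, Rab35 and Rab40. In 11 of them every peak ended inside the gene at both sides. The counts of 15 and 11 were not taken over all protein-coding genes. In a count restricted to peaks that touched a single protein-coding gene, which was added after seeing the data, 17 of the 57 genes qualified (29.8%), against 17.9% of all genes. The shares were then 42.9% for coatomer, 42.1% for Sec and 19.4% for Rab genes, so the Rab share was close to that of all genes.

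Coverage within the genes was higher in the interior than at the ends. This was computed for the 26 genes of at least 2 kb that had a peak and overlapped no other protein-coding gene. Peaks took up 66.6% of the central 50% of these genes on average, and 48.0% of the remaining 25% on either side. The centre was covered more in 18 genes, the outer parts in 5, and 3 were equal. For all 1972 protein-coding genes chosen in the same way the averages were 55.0% and 42.5%. In coatomer genes they were 97.6% and 75.0% (5 genes), in Sec genes 60.5% and 45.2% (10 genes) and in Rab genes 58.0% and 38.3% (11 genes). The table holds no strand, so starts and ends of transcription were not told apart.

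Of the other genes of the secretory pathway, listed by complex, 123 of 168 had a peak (73.2%, 66.1 to 79.3%), with a median covered share of 33.7%. Among all protein-coding genes 38.3% had a peak and the median was 0%, and the counts of each list are read against these values. The oligosaccharyltransferase, which attaches sugars to proteins in the ER, had peaks in 5 of 6 genes and the highest median share of any list, 94.1%. Stt3B and OstDelta were covered completely, and Dad1 had no peak. Arf and Sar1 GTPases with their regulators had peaks in 16 of 18 genes and a median of 57.9%. This list held Sar1, the GTPase that starts COPII assembly, and Arl6, both covered completely, and Arf4 was its longest gene without a peak. Genes of the signal recognition particle and partners of the ER channel had peaks in 11 of 16 cases (median 55.2%), with Srp68 and Srp72 covered completely and SrpRbeta without a peak.

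Tethers, Golgi structure genes and cargo receptors had lower median shares. The TRAPP complex had peaks in 7 of 9 genes (median 31.0%; Trs20 covered to 79.1%, brun to 74.7%, Bet5 without a peak). The COG complex had peaks in 5 of 8 (median 22.7%; Cog3 at 69.9%, Cog2 at 59.8%, Cog1 without). Golgins and related genes had peaks in 10 of 13 (median 34.5%; Grasp65 at 96.6%, Golgin84 at 89.9%, Gmap without). Cargo receptors and p24 proteins had peaks in 8 of 13 (median 9.38%; bai at 100%, opm at 68.9%, p24-2 without).

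At later steps of the pathway, clathrin and adaptor subunits had peaks in 15 of 16 genes (median 35.4%; Chc at 87.5%, AP-1sigma at 87.1%, or without). Retromer genes, which act in retrieval from endosomes, had peaks in 5 of 6 (median 69.6%; Vps26 at 100%, Vps35 at 81.7%, Vps29 without). Regulators of Rab proteins, listed together with proteins that Rabs recruit such as Rim, had peaks in 19 of 24 (median 27.3%; Tbc1d15-17 at 89.5%, TBC1D5 at 77.0%, Rim without). The RabX GTPases, whose symbols the rule does not take, had 1 peak in 5 genes, over 6.62% of RabX1, and RabX4 was the longest without.

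The list of SNARE genes and their disassembly factors also held genes of the Sec1/Munc18 family, which bind SNAREs (Rop, Slh, Vps45 and car). Peaks lay in 20 of its 32 genes (62.5%, where all protein-coding genes gave 38.3%), with a median covered share of 15.1%. Rop, Snap24, Snap29 and Ykt6 were covered completely, and Snap25 (225026 bp) was the longest without a peak.

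**Figure D5:**
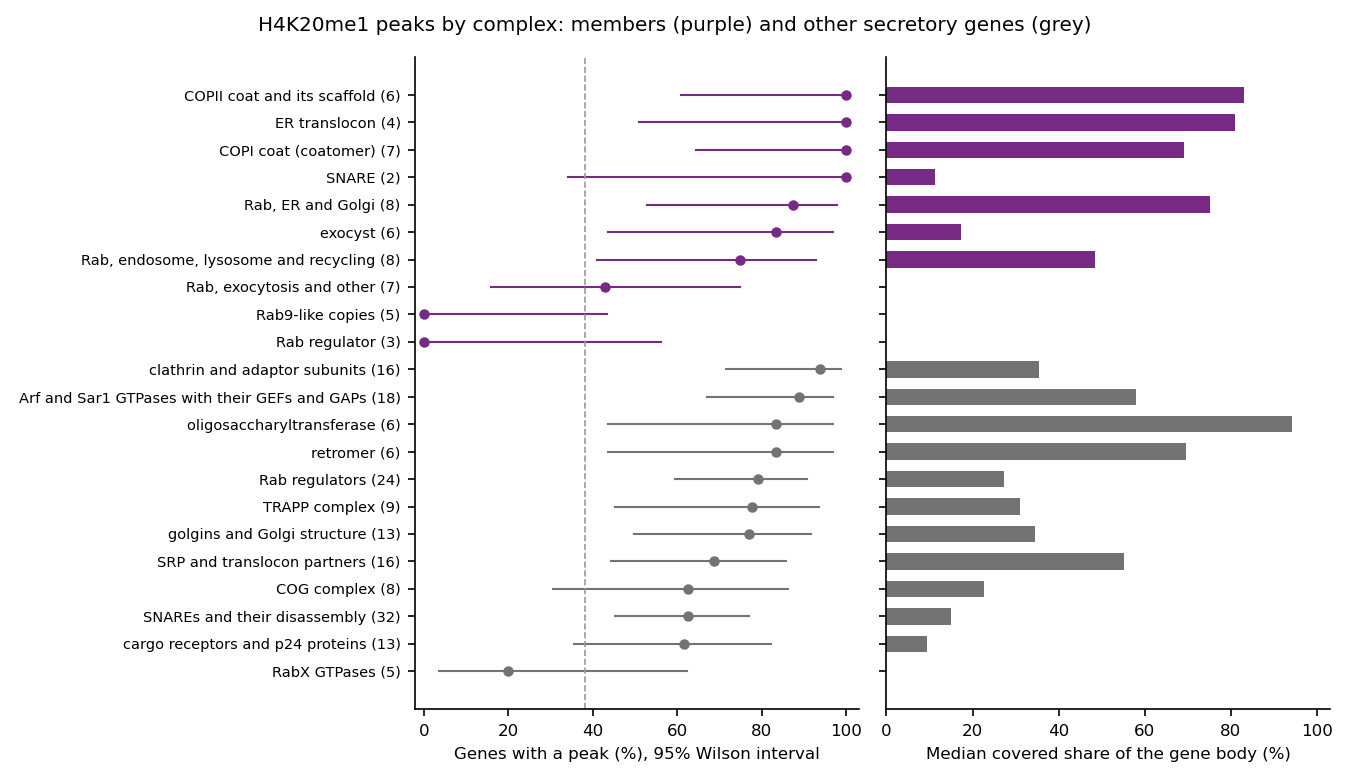
Share of genes with a peak (left, percent, points with 95% Wilson intervals) and median covered share of the gene body (right, percent) for groups of Sec, coatomer and Rab genes (purple) and for the other lists of the pathway (grey), with gene counts in brackets and a dashed line at the 38.3% of all protein-coding genes. The COPI, COPII and ER channel genes all have peaks, and the Rab9-related copies and Rab3 regulators have none.

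The 57 genes lie on all 5 large arms. On X, 10 of 18 had a peak, where 42.1% of all protein-coding genes on X did, and the 8 without were all of the Rab class, including the 5 copies. On 3R the count was 10 of 11 (37.6% of all genes on that arm), on 3L 6 of 7 (38.0%), on 2R 6 of 8 (41.0%) and on 2L 9 of 13 (33.1%). No difference between arms was tested.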

How the data were processed

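Peak positions came from the authors' deposited list for Oregon-R discs, antibody against no primary antibody. Per peak it gives the chromosome, both boundaries and the width in bp. Widths equal end minus start plus 1 and boundaries lie on a 50 bp grid, so positions count from 1. The submitters' processing notes name dm6, Bowtie2, SAMtools, bedtools, edgeR and deepTools. Peak caller, threshold, merging and pooling were not given in the sources used here. Genes and coordinates came from RefSeq (Release 6, same build), which here held no strand, exons or sequences, so planned descriptions of gene starts, promoter motifs and protein identity were not made and no sequence is printed.

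For each gene, peaks, covered bp and covered share of the body were computed in Python 3.11.15 with pandas 2.3.3 and checked on simulated intervals. Intervals are 95% Wilson intervals (scipy 1.17.1). No p-value was computed, since the list has no values per library. Members and lists were chosen with earlier results of these data known. Every member is named; full positions are given for coatomer genes and, in the Sec and Rab classes, for the 4 with the most covered bp, the 4 longest without a peak and those near the 1 bp limit, plus a few others. In other lists, the 2 most covered genes and the longest without a peak are named.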

Additional observations from a re-analysis of the deposited data

How the results depend on the processing

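The share with a peak was higher for coatomer and Sec than for Rab genes under each setting tried. The Rab share came near that of all protein-coding genes under the peak midpoint rule and with peaks over a single gene. For the medians below, a gene that did not meet the rule of a setting counted as 0% covered. With at least 50% of the gene covered, shares with a peak were 57.9% of Sec genes and 49.1% of all 57 (18.3% of all protein-coding genes), with a median of 0% over the 57. With the peak midpoint in the gene they were 57.9% of Sec, 32.3% of Rab and 47.4% of all 57 genes (27.9% of protein-coding genes), and medians fell to 16.5% for Sec and 0% over the 57. The wider 50% of the peaks gave 68.4% of Sec and 56.1% of the 57 (28.4%). Without overlapping genes, medians were 81.9% for coatomer, 16.7% for Rab and 56.7% for the 57. Widening bodies by 500 bp gave a Rab median of 12.7%. Without the Rab9-related copies and Rab3 regulators, 69.6% of Rab and 83.7% of all remaining genes had peaks (38.4% of protein-coding genes), with medians of 41.4% and 58.3%. As none of the removed genes had a peak, these values could only rise. Counting only peaks over a single gene, added after the data were seen, gave 42.1% of Sec, 42.9% of coatomer, 19.4% of Rab and 29.8% of all 57. All protein-coding genes gave 17.9% under that setting, and medians were 0% for Sec, coatomer and the 57. Other values stayed within their Wilson interval or, for medians, 5 points. No paired analysis was possible because the list holds no values per library, and for the same reason no replicate could be left out. Signal too low to be called by the authors cannot be told apart from no signal.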

Other observations

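Some of these genes are close neighbours. Sec15 and Rab11 lie 3.44 kb apart on 3R, and no peak lay between them, although both carry a peak that runs outward from the pair. Sec61alpha and epsilonCOP lie 8.51 kb apart on 2L, and a peak covered 74.6% of the sequence between them. Between Sec24CD and Rab5, 122.3 kb apart on 2L and both covered over more than 50%, there was no peak.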
